A study of Homo sapiens with 8 samples.

Results

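Deoxynucleotide synthesis enzymes were examined as a set of 9 genes in lymphoma cells given a histone deacetylase inhibitor. The members were taken by symbol, in a set that was proposed with earlier results of these data known: RRM1, RRM2, TYMS, DUT, DTYMK, TK1, DCK, CAD and SAMHD1. They are 9 of the 18143 genes that could be placed in the expression table and 9 of the 10710 that passed the filter on low values, so none was lost. RNA-seq was available for 8 libraries in 4 groups of 2: Raji with DMSO, Raji with chidamide, Raji-4RH with DMSO and Raji-4RH with chidamide. Raji is a Burkitt's lymphoma cell line that is sensitive to rituximab, and Raji-4RH is its resistant derivative, made by exposing Raji repeatedly to that anti-CD20 antibody. Chidamide is a benzamide inhibitor of histone deacetylases; it was given at 3 μM, DMSO was its vehicle, and both lasted 24 h. Each line is a single line in culture at passage 2 to 3, and no source used here says that the 2 replicates were separate cultures, so p-values measure only the spread between these libraries.

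Cells build DNA from 4 deoxynucleoside triphosphates, which they keep scarce outside S phase. Ribonucleotide reductase makes deoxynucleotides from ribonucleotides, thymidylate synthase and dUTPase supply thymidylate and keep uracil out of DNA, and salvage kinases recover nucleosides from the medium and from broken-down DNA. SAMHD1 works the other way and breaks deoxynucleoside triphosphates down. Genes of the synthetic enzymes are known to be transcribed mostly as cells enter S phase, largely through E2F factors, and many anticancer drugs act on these proteins or are activated by them.

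The libraries held 13991697 to 21193441 reads, the fewest in replicate 1 of treated Raji-4RH. Each library was closest to the other library of its own group. Pearson's r across genes was 0.992 in treated Raji-4RH and 0.998 in the other groups. In the deposited table many gene labels stand some rows away from their values. At the rows used here, 45 of 49 shifted ribosomal protein genes reached 50 FPKM and 270 of 270 shifted olfactory receptor genes stayed under 0.5 FPKM, against 5 and 134 when read 1 row higher. Within 300 labels of a member, at the same row distance, such genes were few for some members. There was 1 near SAMHD1, 2 near CAD, 2 near DCK and 4 near DUT, so the local check is weak for these. Of them, SAMHD1, CAD and DUT stood in their own rows. FPKM is the number of fragments per kilobase of gene, scaled to the reads of the library, and thus a share of its RNA; the amount of RNA per cell was not measured, and in such bulk samples fewer cells expressing a gene and less RNA per cell cannot be told apart. All 7 B cell markers had at least 1 FPKM in every library, and their summed level ran from 609.7 to 1149 FPKM. Of the 4 T cell, 4 myeloid, 3 epithelial and 3 fibroblast markers, 3, 2, 3 and 2 stayed under 1 FPKM everywhere, and their summed levels reached at most 4.70, 8.10, 0.518 and 2.32 FPKM.

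Chidamide lowered the enzymes that make deoxynucleotides in both lines and raised SAMHD1, which breaks them down; TK1 in Raji was the exception. In Raji-4RH, all 9 members passed the test (limma on log2(FPKM + 1), Benjamini-Hochberg adjusted p under 0.05), 8 lower and 1 higher. In that comparison 74.9% of all genes tested were called, 31.6% lower and 43.3% higher, so a call alone was common and the sizes say more. A fall of at least 1 on the log2 scale was reached by 6 of 9 members and by 5.05% of all genes. The median change of the members was -1.66, and that of all genes was 0.09. In Raji, 8 of 9 members were called, 7 lower and 1 higher, where 60.0% of all genes were called, 28.5% lower and 31.5% higher. There a fall of at least 1 was reached by 1 member and by 0.859% of all genes, and the median change was -0.85 for the members and 0.02 for all genes.

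**Figure D1:**
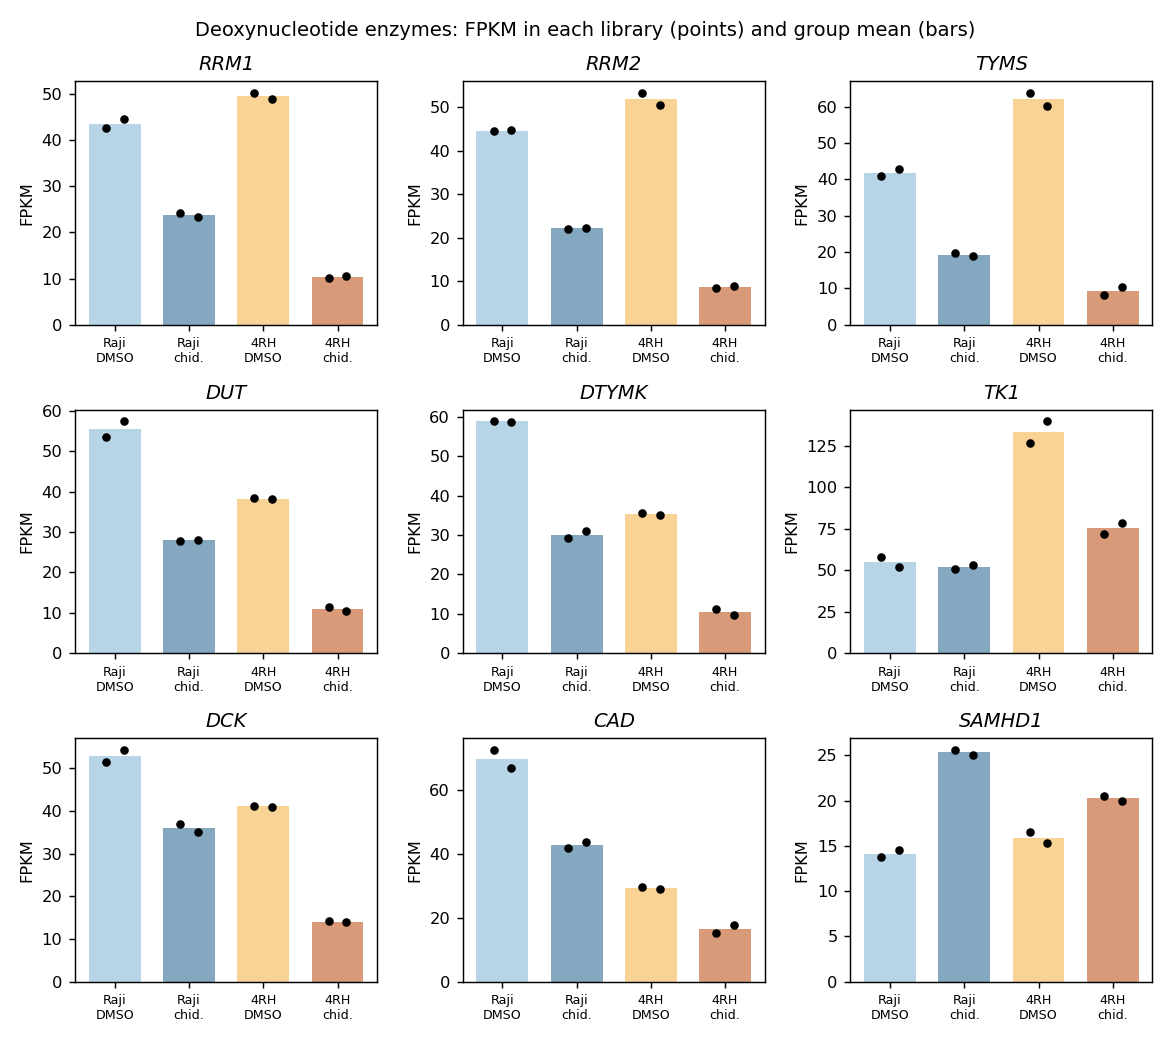
FPKM of each of the 9 genes (one panel each, linear axis from 0) in the 4 groups, with 1 point per library and bars at the mean of 2 libraries. RRM2, for example, stands at 51.9 FPKM in Raji-4RH with DMSO and 8.68 FPKM with chidamide, while SAMHD1 is the member whose chidamide bars are the taller ones in both lines.

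RRM1 and RRM2 encode the large, catalytic subunit and the small, radical-bearing subunit of ribonucleotide reductase, the enzyme that commits ribonucleotides to DNA. RRM1 (ENSG00000167325, GRCh38 chr11:4094707-4138876, plus strand) measured 42.6 and 44.5 FPKM in Raji with DMSO, 24.3 and 23.3 in Raji with chidamide, 50.3 and 49.0 in Raji-4RH with DMSO, and 10.2 and 10.6 in Raji-4RH with chidamide. Treated and untreated libraries did not overlap in either line, and the treated Raji-4RH libraries were the lowest. RRM1 fell by 2.16 ± 0.05 (log2, SE) in Raji-4RH and by 0.85 ± 0.05 in Raji, with adjusted p of 2.84e-08 and 4.45e-06 from limma.

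RRM2 (ENSG00000171848, chr2:10120698-10131419, plus strand) measured 44.5 and 44.8 FPKM in Raji with DMSO, 22.1 and 22.4 with chidamide, 53.4 and 50.5 in Raji-4RH with DMSO, and 8.53 and 8.83 with chidamide. It was 5.47-fold lower with chidamide in Raji-4RH and 1.96-fold lower in Raji on the FPKM + 1 scale. These are log2 changes of -2.45 ± 0.05 and -0.97 ± 0.05 (SE, limma adjusted p of 2.18e-08 and 1.92e-06). By absolute change RRM2 stood at place 70 among the 10710 genes in Raji-4RH and at place 604 in Raji.

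The levels of both subunits fell nearly in step. RRM2 over RRM1 was 1.04 and 1.005 in Raji with DMSO, 0.909 and 0.959 with chidamide, 1.06 and 1.03 in Raji-4RH with DMSO, and 0.837 and 0.836 with chidamide. By FPKM, RRM2 was thus below RRM1 in all 4 treated libraries and slightly above it in all 4 untreated libraries. About 20.2% of the exon bases of RRM2 are shared with a second annotated gene on the same strand, AC007240.1, and 3 annotated pseudogenes carry its name. Part of its reads could belong elsewhere or have gone uncounted, as the counting of shared reads is not stated. Ratios this near 1 therefore do not settle which subunit transcript was the more abundant.

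The promoters of both genes are shown because the subunits moved together. They were read from RefSeq's table for GRCh38.p14, 5′ to 3′ on the gene's strand, with positions counted back from -1 at the last base before the start. RefSeq starts can lie inside the gene spans given here, which come from GENCODE v29. Every site printed here and below, except the RRM1 window, falls at least partly inside such a span. The RRM1 window of 250 bases before the start (chr11:4094435-4094684, plus strand) has in capitals TTCAAA at position -199, 1 match to the cell cycle homology element searched as TTTGAA or TTCGAA on either strand, and CCAAT at position -28. The 3 RRM2 sites, before 1 of its 2 listed starts, are 30 bases each, with CCAAT in capitals at positions -123, -93 and -66, on chr2:10122604-10122633, chr2:10122634-10122663 and chr2:10122661-10122690 of the plus strand.
RRM1 promoter: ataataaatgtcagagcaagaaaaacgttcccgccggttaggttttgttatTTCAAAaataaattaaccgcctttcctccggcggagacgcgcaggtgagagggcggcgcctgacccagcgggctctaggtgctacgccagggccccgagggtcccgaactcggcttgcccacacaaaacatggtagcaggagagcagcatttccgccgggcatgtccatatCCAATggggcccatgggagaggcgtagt
RRM2 first site: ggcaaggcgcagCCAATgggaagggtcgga
RRM2 second site: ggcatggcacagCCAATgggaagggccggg
RRM2 last site: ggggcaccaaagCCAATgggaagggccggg
The other start has CCAAT at position -249. The 3 RRM2 sites also share the letters around the motif, agCCAATgggaaggg.

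RRM2B, not a member, encodes the other small subunit, which pairs with RRM1 outside S phase and after DNA damage. RRM2B fell with RRM2 in Raji and differed from it in Raji-4RH. It measured 59.2 and 62.8 FPKM in Raji with DMSO, 33.96 and 32.5 with chidamide, 14.8 and 14.2 in Raji-4RH with DMSO, and 17.7 and 14.8 with chidamide. It fell by 0.86 (log2) in Raji with a limma adjusted p of 4.30e-05, while in Raji-4RH the change was 0.15 with an adjusted p of 0.116. The latter depended on the processing, with 0.28 (adjusted p 0.0320) under quantile normalization and 0.27 (adjusted p 0.00238) without replicate 2 of treated Raji-4RH. The difference of these effects was 1.009 (adjusted p 2.23e-04), opposite in sign to that of RRM2. Without chidamide RRM2B was lower in Raji-4RH than in Raji by 2.00 on the log2 scale. RRM2 over RRM2B was therefore 0.752 and 0.712 in Raji with DMSO and 3.62 and 3.56 in Raji-4RH with DMSO. With chidamide it was 0.650 and 0.688 in Raji and 0.482 and 0.596 in Raji-4RH, so that RRM2B had the higher FPKM of the small subunit genes in 6 of 8 libraries.

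Thymidylate enzymes showed the same direction. TYMS encodes thymidylate synthase, the target of 5-fluorouracil, which methylates dUMP to dTMP. TYMS (ENSG00000176890, chr18:657604-673578, plus strand) measured 40.9 and 42.7 FPKM in Raji with DMSO, 19.6 and 19.0 with chidamide, 63.8 and 60.1 in Raji-4RH with DMSO, and 8.28 and 10.4 with chidamide. By FPKM it was the highest of the thymidylate synthase, dUTPase and thymidylate kinase transcripts in untreated Raji-4RH and had the lowest mean of them after treatment. The log2 change was -2.61 ± 0.09 in Raji-4RH, or 6.13-fold lower, and -1.08 ± 0.09 in Raji, or 2.11-fold lower (SE, limma adjusted p of 9.82e-08 and 2.35e-05). Among all 10710 genes this change had place 57 in Raji-4RH and place 466 in Raji. ENOSF1 and TYMSOS, on the opposite strand, share 39.1% and 7.41% of the TYMS exon bases; ENOSF1 had 0.194 to 1.83 FPKM and TYMSOS 1.78 to 3.08 FPKM over the 8 libraries, and no source used here states that counting used strand.

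DUT encodes dUTPase, which removes dUTP and yields dUMP, and it has nuclear and mitochondrial forms from different starts that the table does not separate. DUT (ENSG00000128951, chr15:48331011-48343373, plus strand) measured 53.6 and 57.4 FPKM in Raji with DMSO, 27.7 and 28.1 with chidamide, 38.3 and 38.04 in Raji-4RH with DMSO, and 11.4 and 10.5 with chidamide. No treated library reached an untreated one. The log2 change was -1.72 ± 0.06 in Raji-4RH and -0.97 ± 0.06 in Raji (SE, limma adjusted p of 9.71e-08 and 4.19e-06). An antisense gene shares 14.5% of the exon bases of DUT and 8 pseudogenes carry its name, so part of its reads could belong elsewhere or have gone uncounted.

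DTYMK encodes thymidylate kinase, which phosphorylates dTMP from either source and lies where the de novo and salvage routes meet. DTYMK (ENSG00000168393, chr2:241675742-241686991, minus strand) measured 58.9 and 58.8 FPKM in Raji with DMSO, 29.2 and 31.1 with chidamide, 35.6 and 35.2 in Raji-4RH with DMSO, and 11.3 and 9.75 with chidamide. Its log2 change was -1.66 ± 0.07 in Raji-4RH and -0.94 ± 0.07 in Raji (SE, limma adjusted p of 2.47e-07 and 1.27e-05), close to that of DUT in both lines.

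Sites in these 3 promoters are shown because the genes fell together. The E2F element was searched as TTT, then 2 bases that are each G or C, then CGC, on either strand. TYMS has 1 match at position -39 (chr18:657603-657632, plus strand). DUT has 2 matches, at positions -42 and -27 before 1 of its 4 listed starts (chr15:48332152-48332181, plus strand). DTYMK has none; the site shown for it holds the cell cycle homology letters TTCGAA at position -84 (chr2:241686882-241686911, minus strand), with CCAAT in lower case just before them at position -92. The same DUT start has 2 cell cycle homology matches farther away, TTCAAA at positions -214 and -129. The E2F matches and TTCGAA are in capitals.
TYMS site: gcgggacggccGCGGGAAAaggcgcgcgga
DUT sites: ctgGCGGGAAAtttcggtTTTGGCGCgctc
DTYMK site: ccggccaatcccTTCGAAtttggccgaggc
In the windows of 300 bases, from 250 before to 50 after each start, the E2F letters were found in 3 of the 14 member promoters (TYMS, DUT and DCK, the last after the start) and in 4.97% of the 12252 promoters of genes tested (3.31% of all 35116 promoters). The cell cycle homology letters were found in 3 of 14 and in 11.9% of those of genes tested (16.4% of all), and CCAAT on either strand in 7 of 14 and in 35.1% (34.6% of all). A match is a description of the letters and not of binding, and no binding was measured.

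Salvage enzymes were lowered unevenly. TK1 encodes the cytosolic thymidine kinase of S phase, a serum marker of proliferation. TK1 (ENSG00000167900, chr17:78174075-78187233, minus strand) measured 57.8 and 51.7 FPKM in Raji with DMSO, 50.8 and 53.4 with chidamide, 126.9 and 139.9 in Raji-4RH with DMSO, and 72.0 and 78.5 with chidamide. Treated and untreated Raji libraries overlapped, and treated Raji-4RH libraries remained above every Raji library. The log2 change was -0.82 ± 0.08 in Raji-4RH with a limma adjusted p of 1.99e-05, at place 2397 among the 10710 genes by absolute change. In Raji it was -0.07, with a 95% confidence interval of -0.25 to 0.11 and an adjusted p of 0.472, so TK1 was the 1 member not called there.

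DCK encodes deoxycytidine kinase, which phosphorylates deoxycytidine and activates cytarabine and gemcitabine. DCK (ENSG00000156136, chr4:70992538-71030914, plus strand) measured 51.5 and 54.3 FPKM in Raji with DMSO, 36.8 and 34.9 with chidamide, 41.2 and 40.9 in Raji-4RH with DMSO, and 14.1 and 13.9 with chidamide. It fell by 1.49 ± 0.05 (log2, SE) in Raji-4RH and by 0.55 ± 0.05 in Raji, with limma adjusted p of 1.05e-07 and 4.82e-05. MOB1B, on the same strand, shares 6.17% of the exon bases of DCK and had 5.10 to 12.8 FPKM.

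Both kinases start salvage routes, and their ratio differed between groups. TK1 over DCK was 1.12 and 0.952 in Raji with DMSO, 1.38 and 1.53 with chidamide, 3.08 and 3.42 in Raji-4RH with DMSO, and 5.10 and 5.65 with chidamide. TYMS over TK1, the transcript ratio of a de novo and a salvage enzyme of thymidylate, was 0.707 and 0.826, then 0.386 and 0.357, then 0.503 and 0.430, then 0.115 and 0.132 in the same order of groups. The activity of these enzymes was not measured. By these values TK1 had the higher FPKM in every library, and the gap was widest in treated Raji-4RH. ENOSF1 shares 39.1% of the TYMS exon bases, and how reads there were counted is not stated. The absolute size of TYMS over TK1, and which gene was higher where the gap was small, are thus uncertain.

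The 2 CCAAT sites of 1 of the 2 listed TK1 promoters are shown, read as ATTGG on the gene's own strand at positions -77 and -46 (chr17:78187112-78187141 and chr17:78187081-78187110, minus strand), beside those of RRM2, since this gene carries the same letters and did not pass the test in Raji.
TK1 first site: ggccgggcgctgATTGGccccatggcggcg
TK1 second site: ggccggctcgtgATTGGccagcacgccgtg

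CAD encodes the protein that joins the first 3 enzymes of de novo pyrimidine synthesis, upstream of both RNA and DNA precursors. CAD (ENSG00000084774, chr2:27217390-27243943, plus strand) measured 72.6 and 67.0 FPKM in Raji with DMSO, 42.0 and 43.7 with chidamide, 29.7 and 29.1 in Raji-4RH with DMSO, and 15.4 and 17.9 with chidamide. The untreated Raji-4RH libraries lay below the treated Raji libraries, and all 4 groups stood apart. CAD fell by 0.79 ± 0.08 (log2, SE) in Raji-4RH and by 0.69 ± 0.08 in Raji, with limma adjusted p of 2.08e-05 and 9.72e-05. Its places by absolute change among the 10710 genes were 2543 in Raji-4RH and 1372 in Raji.

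SAMHD1 encodes the triphosphohydrolase that splits deoxynucleoside triphosphates and also hydrolyses the active form of cytarabine. SAMHD1 (ENSG00000101347, chr20:36889773-36951901, minus strand) measured 13.8 and 14.5 FPKM in Raji with DMSO, 25.6 and 25.0 with chidamide, 16.6 and 15.3 in Raji-4RH with DMSO, and 20.6 and 20.0 with chidamide. Every treated library was above every untreated one. SAMHD1 rose by 0.33 ± 0.06 (log2, SE) in Raji-4RH, or 1.26-fold, and by 0.80 ± 0.06 in Raji, or 1.74-fold, with limma adjusted p of 8.03e-04 and 1.04e-05. The rise in Raji-4RH was small beside other genes: by absolute change it had place 6311 among the 10710 genes. In Raji it had place 983.

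The letters CCAAT stand in pairs in the promoter of SAMHD1 as well (positions -49 and -38, chr20:36951735-36951764, minus strand), which is shown since the gene moved opposite to RRM2.
SAMHD1 sites: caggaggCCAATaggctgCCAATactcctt
SAMHD1 over RRM2 was 0.310 and 0.325 in Raji with DMSO and 0.310 and 0.303 in Raji-4RH with DMSO. With chidamide it was 1.16 and 1.12 in Raji and 2.41 and 2.26 in Raji-4RH. The ratios of both untreated lines overlapped, and the ratio was higher in every treated library, the more so in Raji-4RH. Its absolute size depends on the annotation: the length in the table is 5038 bases for SAMHD1 and 11261 in GENCODE v29, while the other 8 members have equal lengths in both. With the same reads over the longer one, the ratio would be 0.135 to 0.145 in untreated libraries. It would be 0.520 and 0.5001 in treated Raji and 1.08 and 1.013 in treated Raji-4RH. A longer annotation could also take in more reads, which was not examined. Comparisons of this ratio between groups do not change with such a rescaling. The log2 changes of SAMHD1 on the FPKM + 1 scale would, since the added 1 weighs more at lower values. TLDC2, on the opposite strand, shares 10.3% of the exon bases of SAMHD1 and had 0.357 to 0.903 FPKM.

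**Figure D2:**
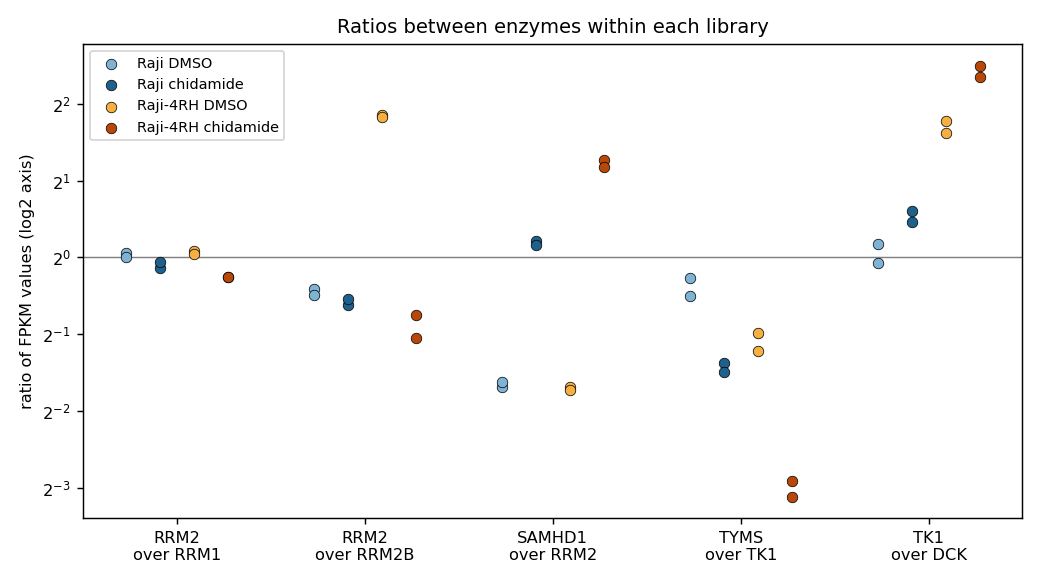
Ratios of FPKM values between pairs of enzymes in each library (log2 axis, 1 point per library, colour by group), with gene lengths as in the table. SAMHD1 over RRM2 lies between 0.303 and 0.325 in the untreated libraries and between 1.12 and 2.41 in the treated ones, and RRM2 over RRM2B is above 1 only in the 2 Raji-4RH libraries with DMSO.

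Whether the resistant line responded differently from its parent was tested as the difference of the chidamide effects, Raji-4RH minus Raji. It was negative for all 9 members and passed the limma test for 8, where 48.8% of all genes were called, 21.7% lower and 27.2% higher. A difference of at least 1 below 0 was reached by 3 members and by 2.24% of all genes. TYMS differed by -1.54 ± 0.13, RRM2 by -1.48 ± 0.07 and RRM1 by -1.31 ± 0.07 (log2, SE, adjusted p of 4.83e-05, 5.46e-06 and 9.59e-06). The remaining synthetic enzymes differed less: DCK by -0.94, DUT by -0.75, TK1 by -0.75 and DTYMK by -0.72. For SAMHD1 the difference was -0.47 ± 0.08 (adjusted p 0.00208), which here means a smaller rise in Raji-4RH. CAD was the exception, with -0.10, a 95% confidence interval of -0.34 to 0.15 and an adjusted p of 0.481.

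**Figure D3:**
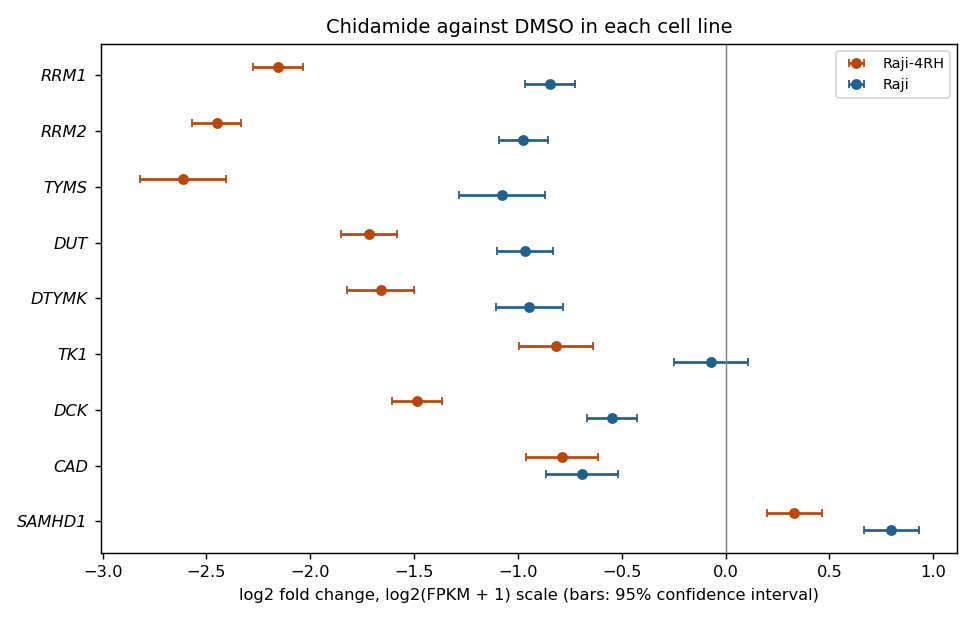
Log2 fold change with chidamide for each gene in Raji-4RH (orange) and Raji (blue), on the log2(FPKM + 1) scale, with 95% confidence intervals from limma over 8 libraries. The intervals of both lines lie apart for every gene except CAD, with -0.79 and -0.69, and only that of TK1 in Raji crosses 0.

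Before treatment the lines differed in all 9 members, in no common direction. Here 73.6% of all genes were called, 41.2% higher and 32.4% lower in Raji-4RH, and the members divided into 5 higher and 4 lower. TK1 was higher in Raji-4RH by 1.27 ± 0.08 (log2, SE), or 2.41-fold, and TYMS by 0.55 ± 0.09, with limma adjusted p of 1.37e-06 and 5.79e-04. CAD was lower by 1.22 ± 0.08 (adjusted p 1.45e-06), DTYMK by 0.72, DUT by 0.53 and DCK by 0.36. RRM1, RRM2 and SAMHD1 were higher by 0.18, 0.21 and 0.16, with adjusted p of 0.0112, 0.00493 and 0.0351. These 3 small differences were not stable: the count of members called was 6 without replicate 1 of Raji-4RH with DMSO and 7 without replicate 1 of Raji with DMSO, and the adjusted p of SAMHD1 was 0.0531 with a replicate block.

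Under chidamide 8 of the 9 members were lower in Raji-4RH than in Raji and 1 was higher, where 79.3% of all genes were called, 35.0% lower and 44.3% higher. DTYMK was lower by 1.43, CAD by 1.32, DCK by 1.30, DUT by 1.28, RRM2 by 1.26, RRM1 by 1.13 and TYMS by 0.98 on the log2 scale. SAMHD1 was lower by 0.31 (limma adjusted p 0.00111). TK1 alone was higher, by 0.52 ± 0.08 (adjusted p 2.81e-04). RRM1, RRM2 and TYMS, which were higher in Raji-4RH before treatment, were thus lower after it. These comparisons share libraries with those of chidamide against DMSO and are not independent of them.

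**Figure D4:**
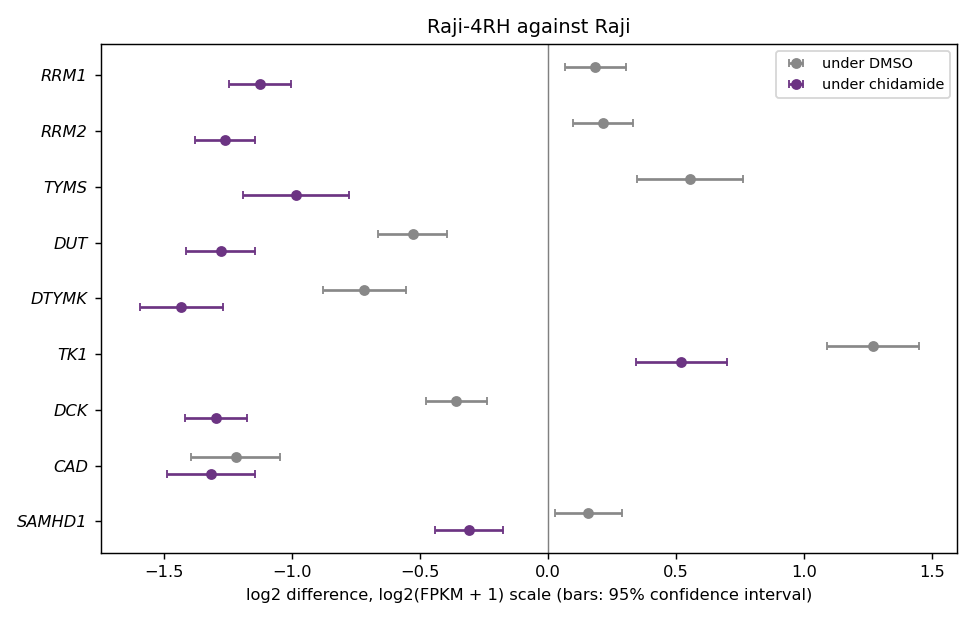
Log2 difference of Raji-4RH from Raji for each gene, with DMSO (grey) and with chidamide (purple), on the log2(FPKM + 1) scale with 95% confidence intervals from limma. RRM1, RRM2, TYMS and SAMHD1 lie right of 0 with DMSO and left of it with chidamide, TK1 stays to the right (1.27 and 0.52) and CAD to the left (-1.22 and -1.32).

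Ranked by level per length, CAD led in Raji with DMSO (69.8 ± 3.98 FPKM, SD, n = 2), followed by DTYMK, DUT, TK1, DCK, RRM2, RRM1, TYMS and SAMHD1 (14.2 ± 0.512). DUT, TK1 and DCK overlapped in that order, as did RRM2, RRM1 and TYMS. In Raji with chidamide TK1 led (52.1 ± 1.79) and TYMS was last (19.3 ± 0.409), with no overlap between neighbours. In Raji-4RH with DMSO TK1 led (133.4 ± 9.20), followed by TYMS, RRM2, RRM1, DCK, DUT, DTYMK, CAD and SAMHD1 (15.9 ± 0.910), again with no overlap. In Raji-4RH with chidamide TK1 led (75.2 ± 4.60), and with the length in the table SAMHD1 came second (20.3 ± 0.400), then CAD and DCK. The other 5 members lay between a mean of 8.68 and 10.9 FPKM, and each overlapped its neighbour. SAMHD1 was the least abundant of the 9 transcripts in both untreated groups with either length. Its place after treatment rests on the length. With the same reads and the GENCODE v29 length, its means would be 11.3 FPKM in treated Raji and 9.07 FPKM in treated Raji-4RH. These are places 9 and 8 of the 9. Reads that the added bases might hold were not examined. Places of TYMS, RRM2 and other members with shared exons also rest on how shared reads were counted, which is not stated. Counts behind these values were never small: a member had at least 286 reads in a library, for TYMS, and at most 12081, for CAD.

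The wider pathway was described with a list of 67 genes by role, of which 57 were tested, 5 were placed but too low, and 5 were not placed. In Raji-4RH, 40 of the 57 fell, 11 rose and 6 did not pass the test, with a median of -0.47 against 0.09 for all genes; of all genes, 31.6% fell and 43.3% rose. In Raji 34 fell, 6 rose and 17 did not pass, with a median of -0.33 against 0.02; of all genes, 28.5% fell and 31.5% rose. The counts by role are to be read beside these same shares, and no difference between the list and other genes was tested. A fall of at least 1 was reached by 8 of 57 genes in Raji-4RH and by 1 in Raji, beside 5.05% and 0.859% of all genes.

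Folate enzymes carry the carbon units for thymidylate and purines, and 7 of 9 tested fell in Raji-4RH, 1 rose and 1 did not pass the test. MTHFD1L, the mitochondrial formate-producing enzyme, fell from a mean of 37.1 to 11.7 FPKM in Raji-4RH (log2 change -1.59) and from 29.3 to 15.4 in Raji (-0.89). SLC19A1, the reduced folate carrier that also takes up methotrexate, changed by -1.28 and -0.98. MTHFD2 and MTHFD1 changed by -0.97 and -0.92 in Raji-4RH. In Raji MTHFD2 fell by 0.24, a call kept in 16 of 19 alternatives. Under quantile normalization its change there was -0.10 with a limma adjusted p of 0.222. The value of MTHFD1 in Raji was -0.10 with a limma adjusted p of 0.142. In Raji 5 of the 9 fell, 1 rose and 3 did not pass.

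Genes of de novo purine synthesis mostly fell, with 10 of 11 genes lower and 1 higher in Raji-4RH and 8 lower and 3 not passing in Raji. PFAS, which acts at the fourth step of the route, changed by -1.42 in Raji-4RH (50.3 to 18.2 FPKM) and by -0.78 in Raji. GMPS, PRPS1 and PAICS changed by -1.10, -1.006 and -1.004 in Raji-4RH and by -0.43, -0.60 and -0.60 in Raji. Of the 4 other genes of de novo pyrimidine synthesis, all fell in Raji-4RH and 3 in Raji. CTPS1, which makes CTP from UTP, changed by -1.22 and -1.004, and UMPS by -0.53 and -0.41. CTPS2, its paralog, fell by 0.26 in Raji-4RH, and in Raji its value was -0.04 with a limma adjusted p of 0.62.

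Salvage and import genes were more mixed, with 7 of 11 lower, 2 higher and 2 not passing in Raji-4RH, and 6, 1 and 4 in Raji. SLC29A1, the equilibrative nucleoside transporter that imports cytarabine and gemcitabine, changed from 74.9 to 35.3 FPKM in Raji-4RH (-1.06) and from 95.002 to 84.6 in Raji (-0.17, adjusted p 0.0478 and 0.0704 with a replicate block, and called in 9 of 19 alternatives), and the difference of the effects was -0.90 with a limma adjusted p of 1.11e-04. The uridine-cytidine kinases UCK2 and UCKL1 changed by -0.86 and -0.82 in Raji-4RH, and HPRT1, the purine salvage enzyme, by -0.79. TK2, the mitochondrial thymidine kinase, had means of only 0.014 and 0.064 FPKM in Raji and 0.744 and 1.42 in Raji-4RH, DMSO first, so TK1 held nearly all thymidine kinase transcript in these cells.

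Among nucleotide kinases 6 of 9 fell, 1 rose and 2 did not pass in Raji-4RH, and in Raji 4, 1 and 4. NME3 and CMPK1 changed by -0.94 and -0.83 in Raji-4RH and by -0.52 and -0.53 in Raji, while NME4 and AK4 changed by -0.44 and -0.47 in Raji-4RH. Of 12 genes that clean or break down nucleotides, 6 fell and 6 rose in Raji-4RH, the rises being near the 43.3% of all genes; in Raji 7 fell, 3 rose and 2 did not pass. The genes of this role that fell include those that clear damaged or unwanted triphosphates: NUDT1 (-0.77) and DCTPP1 (-0.77). NT5C3A, a nucleotidase that dephosphorylates pyrimidine monophosphates, rose from 12.03 to 26.6 FPKM in Raji-4RH (1.08) and from 15.5 to 19.2 in Raji (0.29). The call of this rise in Raji was kept in 16 of 19 alternatives. NT5C3A was the 1 gene of the list that rose by at least 1 in Raji-4RH, which 10.1% of all genes did, and it shares its direction with SAMHD1.

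**Figure D5:**
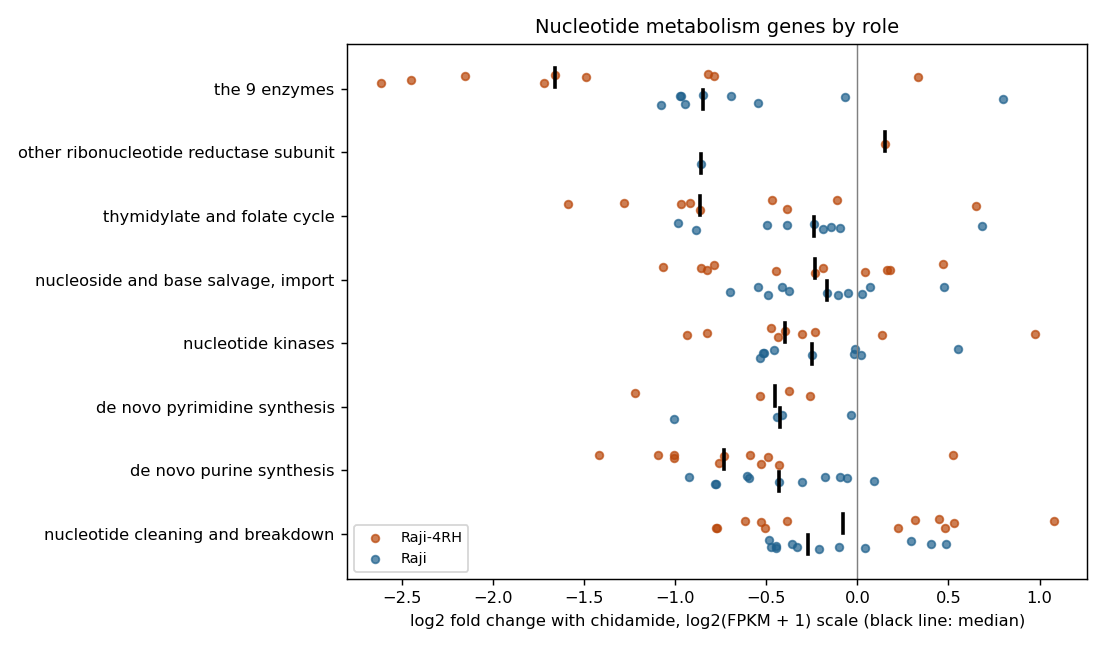
Log2 fold change with chidamide of the 9 enzymes and of 57 other nucleotide metabolism genes by role, in Raji-4RH (orange) and Raji (blue), on the log2(FPKM + 1) scale; each point is 1 gene and black lines are medians. The 9 enzymes have a median of -1.66 in Raji-4RH, purine synthesis -0.73 and nucleotide cleaning and breakdown -0.08.

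Genes that followed the same course over the 8 libraries were sought for RRM2 and SAMHD1 among 6605 other genes whose mean was 5 FPKM or more, by the root mean square difference of centred log2(FPKM + 1). Closest to RRM2 were MYBL2, a transcription factor of the cell cycle, CLSPN, a replication checkpoint adaptor, CDCA5, a cohesin regulator, and SLC43A3, a purine base transporter, with differences of 0.102 to 0.137. MYBL2 changed by -2.28 in Raji-4RH and -1.08 in Raji, near the -2.45 and -0.97 of RRM2. Closest to SAMHD1 were FBXW11, CHD2, FOXN3 and HMGCS1, with differences of 0.0608 to 0.0779. FBXW11, a ubiquitin ligase subunit, changed by 0.29 and 0.67, beside 0.33 and 0.80 for SAMHD1. These points share libraries and depth, and the likeness is a description over 8 libraries.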

How the data were processed

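RNA-seq was made from 8 cell line libraries, 2 per group, from cells that the labels say were harvested by flow sorting, with an NEBNext Ultra kit that is not stated to mark strand. The submitters' processing notes name HISAT2 2.0.5, SAMtools 1.7, HTSeq 0.9.1 and GRCh38; the annotation is not given in the sources used here. The authors deposited 1 table of FPKM values with gene lengths, 63967 rows, whose last 662 rows repeat the first. FPKM times length and library total gave whole reads for 100.0% of values (tolerance 0.02 reads). For most genes label and values stand apart; a map of row distances placed 18143 labels, 6234 of them in their own row, and FPKM was recomputed with the label's own length. These rows hold 90.7% to 93.2% of the reads, and the other genes were not used here. Per the labels, groups are line by treatment.

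The 10710 genes that reached 1 FPKM in 2 or more libraries were tested on the scale log2(FPKM + 1) with limma 3.58.1 (trend) in R 4.3.3, all 8 libraries entering a single fit, with Benjamini-Hochberg adjustment over all of them and calls at 0.05. Log2 changes understate those of low genes, errors of log2 values are standard errors from the fit, and confidence intervals are at 95%. An exact permutation test of 2 against 2 libraries cannot go below 0.333. Tests were also tried on simulated data. The members, the pathway and marker lists and the tests were chosen with earlier results of these data known. Named genes were the members, RRM2B and TK2, in each pathway role at most 4 called genes (mean 5 FPKM or more) with the largest change in Raji-4RH, and for RRM2 and SAMHD1 the 4 nearest genes; 1 gene that this rule names is not reported here. Alternatives were quantile normalization, median centring, no trend, other filters, a fit to the compared libraries alone, a pseudocount of 0.1, a replicate block, voom on recovered reads, unshifted labels only and leaving out each library. Gene coordinates were taken from GENCODE v29 (GRCh38), and promoters come from RefSeq (GRCh38.p14), where all 9 members were found.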

Additional observations from a re-analysis of the deposited data

Results flagged for a closer look

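The effect of chidamide differed between the lines, by the test of the difference itself, for 8 of the 9 enzymes (Raji-4RH minus Raji, log2, limma with Benjamini-Hochberg adjustment). The differences were -1.54 for TYMS, -1.48 for RRM2, -1.31 for RRM1, -0.94 for DCK, -0.75 for DUT, -0.75 for TK1, -0.72 for DTYMK and -0.47 for SAMHD1, the last with an adjusted p of 0.00208 and the others with smaller ones.

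Among the other nucleotide metabolism genes named, the difference was below 0 for MTHFD1 (-0.82), MTHFD1L (-0.70), MTHFD2 (-0.73), SLC19A1 (-0.30), UCK2 (-0.37), HPRT1 (-0.41), SLC29A1 (-0.90), CMPK1 (-0.29), NME3 (-0.42), CTPS1 (-0.22), PRPS1 (-0.40), PFAS (-0.64), PAICS (-0.41), GMPS (-0.67), NUDT1 (-0.44) and DCTPP1 (-0.41). It was above 0 for RRM2B (1.009), NT5C3A (0.78) and TK2 (0.40). That of TK2 rests on values near 1 FPKM or below and changed sign with the processing. Those of SLC19A1, CTPS1 and NME3 were not called with a replicate block (adjusted p 0.0556, 0.0648 and 0.0590).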

How the results depend on the processing

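The counts of members called were 9, 8, 8 and 9 under every alternative for chidamide in Raji-4RH, chidamide in Raji, the difference of the effects and the lines under chidamide, wherever all 9 could be tested. For the lines under DMSO the count was 6 to 9. Of 816 alternative values of the members, 803 kept direction and call and 10 lost the call, all between the untreated lines: SAMHD1 under quantile normalization (adjusted p 0.0531), median centring (0.109), the replicate block (0.0531) and without any of 4 libraries (up to 0.237), RRM1 without replicate 1 of Raji DMSO (0.0658) or of Raji-4RH DMSO (0.0772), and RRM2 without the latter (0.0523). The remaining 3 changed sign without a call: TK1 in Raji with quantile normalization (0.0778) and when leaving out 1 library (-0.149 to 0.00949), and the CAD difference of effects when leaving out 1 library (-0.200 to 0.00633, highest without Raji-4RH chidamide replicate 1).

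Other genes that changed sign were TK2 with quantile normalization (-0.21 in Raji-4RH and -0.23 for the difference of effects) and with voom (-0.91, difference), CMPK1 between untreated lines with quantile normalization (0.0177) and when leaving out 1 library (-0.0712 to 0.0161), MTHFD1 there with median centring (-0.0138) and when leaving out 1 library (-0.00458 to 0.0657), the difference of effects of NME4 with median centring (-0.0125) and when leaving out 1 library (-0.0985 to 0.144), that of UCKL1 (-0.308 to 0.0553) and CTPS2 in Raji (-0.0800 to 0.00787) when leaving out 1 library. None of these was called in the changed direction; the cause was not tested. Of 1740 alternative values of these other genes, 1622 kept direction and call, 84 lost the call and 21 gained one. The differences of effects held least for TK2 (kept in 7 of 14 alternatives), SLC19A1 and DCTPP1 (9 of 17 each), NME3 (10 of 18) and CMPK1 and CTPS1 (11 of 17 each). Quantile normalization moved the median of all genes in Raji-4RH from 0.09 to -0.02 and the share of calls that were higher from 57.9% to 47.8%.

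Replicate numbers are shared across groups, but deviations of libraries with the same number were at most weakly correlated (-0.279 to 0.166), so no pairing was seen. With 2 libraries per group this check cannot exclude that libraries with the same number were handled together. With the replicate block, 7886, 6183, 4915, 7748 and 8397 genes were called in the 5 comparisons, in place of 8022, 6421, 5231, 7882 and 8495, and the call of SAMHD1 between the untreated lines was the 1 member call lost. The block also ended the differences of effects of SLC19A1 (adjusted p 0.0556), CTPS1 (0.0648) and NME3 (0.0590), the call of NME3 between the untreated lines (0.0547) and that of SLC29A1 in Raji (0.0704). A block with the Raji DMSO numbers exchanged, chosen after seeing the data, gave 8190, 6587, 5509, 8037 and 8604. Depth does not limit the members, but with 2 libraries per group the spread itself is poorly known. The single fit gives each gene the same spread in all groups, although the treated Raji-4RH libraries were less alike than the others. Fitted to the compared libraries alone, chidamide in Raji-4RH had 69.4% of genes called in place of 74.9%. In Raji the share was 63.1% in place of 60.0%.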
